A study of Mus musculus with 6 samples.

Results

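The genes described here encode the proteasome, the particle that degrades ubiquitin-tagged proteins, and were read in MC38 cells with and without eicosapentaenoic acid (EPA). They were chosen by name, as the target IDs of the array table made of PSM, a letter from A to G and a number, with the immunoproteasome subunits PSMB8, PSMB9 and PSMB10 left out. This gave 43 genes of the 30828 targets in the table. They comprise 16 genes of the 20S core, 17 of the 19S cap, 5 assembly factors and 5 activators or modulators.

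The proteasome has a barrel-shaped core, named 20S after its sedimentation, made of stacked rings of alpha and beta subunits, with the proteolytic sites on the inner beta rings. The 19S cap recognises ubiquitin chains, removes them, and unfolds the substrate with a ring of ATPases that opens the gate of the core. Dedicated chaperones assemble the core and the base of the cap, and other activators can bind the core in place of the cap. Cells that lose proteasome activity raise the transcription of many subunit genes together through the transcription factor NFE2L1.

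MC38 cells come from a mouse colorectal tumour and were grown here in RPMI medium with foetal calf serum. The EPA group (3 samples) received 50 µM of this long-chain omega-3 fatty acid as the free fatty acid for 24 h, and the control group (3 samples) is labelled only as control. No vehicle and no duration are named for the controls, and effects of either cannot be told apart from those of EPA. Nothing states that replicates are separate cultures, and the p-values therefore measure only how much these samples vary, which may be technical.

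Total RNA was measured with 1 Illumina mouse bead array per sample, and the values are quantile-normalised intensities with a median of 35.2 on every array, so a shift of all RNA would not be seen. In bulk RNA, fewer cells of a kind and less RNA per cell cannot be told apart. A target counted as above background when all 3 arrays of either group exceeded an intensity of 39.4, and 9273 named genes passed. In limma, 3154 of these genes (34.0%) passed an adjusted p of 0.05, 18.4% higher and 15.6% lower with EPA. Of 15 epithelial markers, 2 (Krt8 and Cldn7) were above background, while the defining markers Epcam, Krt18, Krt19, Cdh1, Vil1 and Cdx2 were not. Of 11 immune markers on the array, 1 (Cd14) was above background. Among 10 fibroblast and endothelial markers, 5 were above background and 4 of these (Col1a2, Pdgfra, Pdgfrb and Dcn) were higher with EPA. The endothelial markers Pecam1, Cdh5 and Kdr were below background. The summed intensity of the 10 fibroblast and endothelial markers was 1150 to 1210 on the EPA arrays and 691 to 702 on the control arrays. No marker was at 0, and the part of this list in the results below was not tested.

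The proteasome genes did not move as one block. Of the 43 genes, 36 were above background, and 8 of these were higher with EPA, 5 were lower and 23 did not pass the test. The 13 called genes are 36.1% of those tested, near the 34.0% called over all genes tested, so the count does not set proteasome genes apart. All of these changes were small: the rises ran from 1.16-fold to 1.40-fold and the falls from 1.19-fold to 1.31-fold. The median log2 fold change of the 36 genes was 0.01, beside 0.01 over all genes tested, and the median absolute log2 fold change was 0.16, beside 0.18. EPA and control arrays did not overlap for 19 of the 36 genes (52.8%), where the share over all genes tested was 47.6%. EPA was above in 10 of them and below in 9, beside 24.9% and 22.7% of all genes tested. The number of called proteasome genes was lower in every fit that left out 1 array. It was 6 without EPA replicate 3, 6 without control replicate 1, 7 without control replicate 3, 8 without EPA replicate 2, and 11 without EPA replicate 1 or control replicate 2. Over all genes tested the share called fell too, to between 24.9% (without control replicate 1) and 30.8% (without EPA replicate 1). No called gene changed direction in these fits, which was fixed in advance, because the groups did not overlap for any called gene. The calls of 5 genes, Psmd1, Psmd2, Psmd10, Psmd14 and Psme2, held in all of them.

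**Figure D1:**
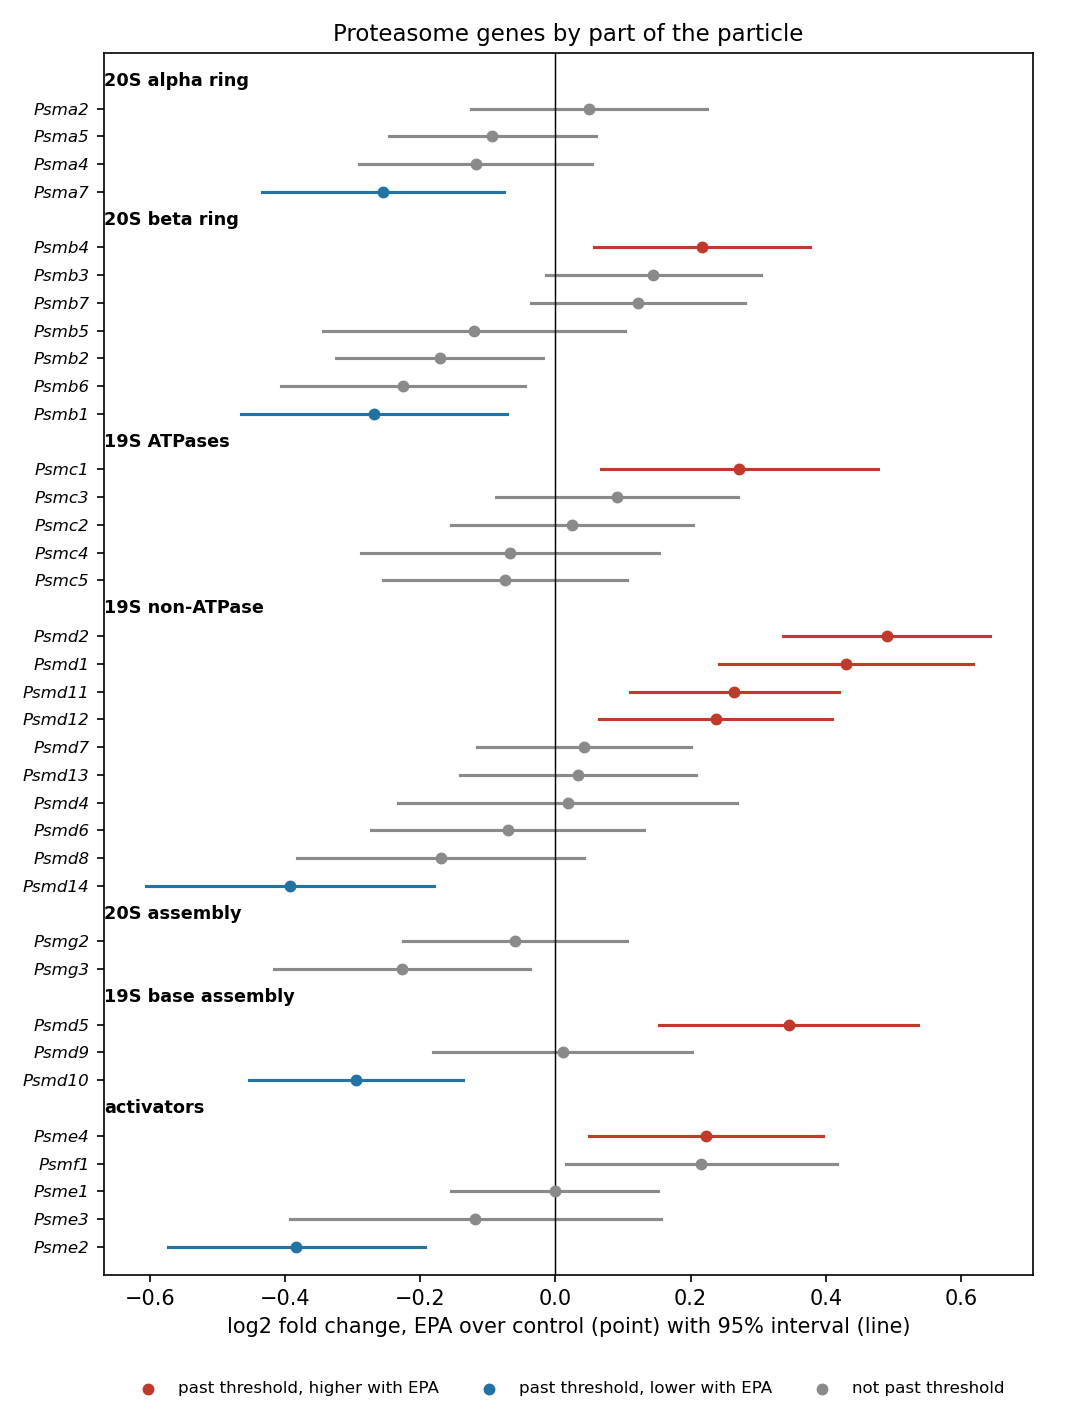
Log2 fold change of each tested proteasome gene, EPA over control, on the horizontal axis, with genes grouped by part of the particle; points are limma estimates from 3 arrays per group and lines are 95% intervals. The largest rise (Psmd2, log2 0.49) and the largest fall (Psmd14, log2 -0.39) are both in the non-ATPase group of the 19S cap.

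By part of the particle, rises outnumbered falls in the 19S cap and not in the 20S core; the difference between the parts was not tested. In the 20S core, 1 of 11 tested genes was higher and 2 were lower, with a median log2 fold change of -0.12. In the 19S cap, 5 of 15 were higher and 1 was lower, with a median of 0.03. The assembly factors had 1 of 5 higher and 1 lower (median -0.06), and the activators had 1 of 5 higher and 1 lower (median -0.00). The share called was 27.3% in the core and 40% in each of the other groups, against 34.0% over all genes tested. Several of these counts changed when 1 array was left out, as did the share called over all genes tested (24.9% to 30.8%). Leaving out any 1 array left 0 rises in the core, and its falls numbered 0 without EPA replicate 3, control replicate 1 or control replicate 3, 1 without EPA replicate 1 or EPA replicate 2, and 2 without control replicate 2. Rises in the cap numbered 2 without control replicate 3, 3 without EPA replicate 2, EPA replicate 3 or control replicate 1, and 4 without EPA replicate 1 or control replicate 2, with 1 fall each time. The cap median was -0.0043 without EPA replicate 2, 0.066 without EPA replicate 1 and 0.067 without control replicate 3, while the core median stayed below 0, at -0.15 to -0.08. Rises ranged from 0 to 1 among assembly factors and from 0 to 2 among activators.

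Promoter sequences were read for the members that the RefSeq promoter table of build GRCm38.p6 holds, 35 genes with 38 windows of 250 bases before and 50 bases after the start. Not matched were Psma8, Psmb1, Psmb2, Psmb7, Psmc3, Psmd3, Psmd7 and Psmg2. The windows were searched on both strands for TGACNNNGC (the core of the antioxidant response element that NFE2L1 and NFE2L2 bind), CCAAT (bound by NF-Y) and GGGCGG (the GC box bound by SP1). The 250 bases before the start are shown for 5 genes, the 2 whose calls held under every alternative (Psmd2, Psmd1), the 2 largest falls of the 19S subunits and their chaperones (Psmd14, Psmd10), and Psmd12, which was higher and holds an antioxidant response element core. Capitals mark the motif letters on either strand. In the bases shown, Psmd2 holds 1 GC box, Psmd1 none of the 3 motifs, Psmd12 the response element core and 2 GC boxes, Psmd14 1 CCAAT and 3 GC boxes, and Psmd10 3 CCAAT and 1 GC box, with no motif overlapping another.
Psmd2, chr16:20651402-20651651, + strand: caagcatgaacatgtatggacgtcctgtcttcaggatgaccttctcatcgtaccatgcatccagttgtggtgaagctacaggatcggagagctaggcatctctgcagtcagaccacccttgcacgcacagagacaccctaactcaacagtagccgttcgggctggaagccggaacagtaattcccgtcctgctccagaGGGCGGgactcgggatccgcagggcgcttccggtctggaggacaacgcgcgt
Psmd1, chr1:86064369-86064618, + strand: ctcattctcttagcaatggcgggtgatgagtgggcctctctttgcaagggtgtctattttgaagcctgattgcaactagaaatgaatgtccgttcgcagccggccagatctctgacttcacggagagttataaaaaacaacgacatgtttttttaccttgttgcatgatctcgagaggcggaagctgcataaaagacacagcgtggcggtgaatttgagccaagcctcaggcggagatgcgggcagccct
Psmd12, chr11:107479278-107479527, + strand: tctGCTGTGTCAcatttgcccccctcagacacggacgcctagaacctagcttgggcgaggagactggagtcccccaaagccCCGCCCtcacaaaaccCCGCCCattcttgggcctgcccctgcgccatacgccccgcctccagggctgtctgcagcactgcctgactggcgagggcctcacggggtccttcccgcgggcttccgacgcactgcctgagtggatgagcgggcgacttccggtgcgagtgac
Psmd14, chr2:61711444-61711693, + strand: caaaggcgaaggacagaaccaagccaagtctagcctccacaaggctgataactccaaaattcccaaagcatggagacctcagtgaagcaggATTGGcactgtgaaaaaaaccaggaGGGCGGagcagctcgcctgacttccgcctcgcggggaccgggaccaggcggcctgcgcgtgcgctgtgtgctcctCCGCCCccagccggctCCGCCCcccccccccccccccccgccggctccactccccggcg
Psmd10, chrX:140956712-140956961, - strand: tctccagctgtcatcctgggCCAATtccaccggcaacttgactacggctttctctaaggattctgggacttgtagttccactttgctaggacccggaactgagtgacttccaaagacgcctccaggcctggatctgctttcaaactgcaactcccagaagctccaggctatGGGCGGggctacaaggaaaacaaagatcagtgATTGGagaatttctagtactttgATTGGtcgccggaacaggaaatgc

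The antioxidant response element core was in 6 of the 38 member windows (15.8%), against 12.4% of all 32851 promoter windows of the same length. These were the windows of Psmb5, Psmb6, Psmc6, Psmd9, Psmd12 and Psme4, of which Psmd12 and Psme4 were higher with EPA and Psmb5, Psmb6 and Psmd9 did not pass. CCAAT was in 13 member windows (34.2%), against 37.4% of all windows, with 7 of 13 windows of the 20S core and 4 of 15 of the 19S cap. Of the core genes with CCAAT, Psma1, Psma3, Psma6 and Psmb11 were below background and have no measure here. The GC box was in 22 member windows (57.9%), against 35.7% of all windows. By call, 2 of 8 windows of genes higher with EPA held the response element core and 1 held CCAAT, while 0 and 3 of the 5 windows of lower genes did. Among the 19 windows of genes that did not pass, 3 held the response element core (15.8%) and 5 held CCAAT (26.3%). The 5 windows of lower genes come from 4 genes, as Psme2 has 2 overlapping windows. No difference by call was tested. The GC box was in 6 of the 8 windows of higher genes (75.0%), in 5 of the 5 windows of lower genes, and in 9 of 19 windows of genes that did not pass (47.4%). These are counts of letters in short windows, not of bound sites.

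The outer alpha rings of the core form the gate through which substrates enter. Of their 4 tested genes, 1 passed (25%, against 34.0% over all genes tested). Psma7 read 5469.6, 6288 and 6019.6 on the EPA arrays, against 7356, 6718 and 7117 on the control arrays. Every EPA array was below every control array, and the fall was 1.19-fold (log2 fold change -0.25, SE 0.0798, limma adjusted p = 0.0333). The call was lost without EPA replicate 1, EPA replicate 3, control replicate 1 or control replicate 3 (limma adjusted p 0.0384 to 0.113 over the fits leaving out 1 array), with log2 fold changes of -0.30 to -0.20.

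The other alpha subunit genes above background did not pass. Psma2 read 9733, 9462 and 10117 on the EPA arrays, against 9203, 8933 and 10217 on the control arrays, with overlapping groups and a log2 fold change of 0.05 (95% interval -0.12 to 0.22). Psma5 read 7489.7, 7056 and 7337 on the EPA arrays, against 7978, 7694 and 7668 on the control arrays, and here the groups did not overlap although the difference was small (log2 fold change -0.09, 95% interval -0.25 to 0.06). Psma4 had a log2 fold change of -0.12 (95% interval -0.29 to 0.05). The targets of Psma1, Psma3 and Psma6 were below background on all 6 arrays, as was Psma8, a subunit of meiotic germ cells. The first 3 encode subunits of every 20S core, so these targets give no measure of their RNA here. The 7 proteasome genes below background read 12.4 to 36.4 on the EPA arrays and 15.7 to 34.0 on the control arrays.

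Among the beta subunits, which carry the proteolytic sites, members went both ways. Psmb1, a subunit without a proteolytic site, was lower. It read 7809, 7209.8 and 6364 on the EPA arrays, against 8718, 8188 and 8769 on the control arrays, a fall of 1.20-fold (log2 fold change -0.27, SE 0.0881, limma adjusted p = 0.04) with no overlap between groups. Psmb4, also without a proteolytic site, was higher. It read 15452, 14669 and 14255 on the EPA arrays, against 12960.1, 12261 and 12960.1 on the control arrays, a rise of 1.16-fold (log2 fold change 0.22, SE 0.0713, limma adjusted p = 0.0404), again without overlap. Neither call was firm. The Psmb4 call was lost on leaving out any 1 of the 6 arrays (limma adjusted p 0.0644 to 0.119; log2 fold change 0.18 to 0.24), and the Psmb1 call held only without EPA replicate 1 (limma adjusted p 0.019 to 0.144; log2 fold change -0.34 to -0.19).

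The 3 genes for the proteolytic subunits did not pass the test. Psmb5, which gives the chymotrypsin-like activity that proteasome drugs target, read 1977, 2090.0 and 1661 on the EPA arrays, against 2246, 2024 and 1939.7 on the control arrays. These groups overlapped, with a log2 fold change of -0.12 (95% interval -0.34 to 0.10). Psmb6, of the caspase-like site, read 4199, 4436 and 4466 on the EPA arrays, against 5031, 4740.4 and 5574 on the control arrays (log2 fold change -0.23, limma adjusted p = 0.0559), and Psmb7, of the trypsin-like site, read 4389, 4079 and 4371 on the EPA arrays, against 3925, 3829.7 and 4041 on the control arrays (log2 fold change 0.12, limma adjusted p = 0.213). Both had groups that did not overlap, Psmb6 with EPA below and Psmb7 with EPA above. The structural subunits Psmb2 and Psmb3 had log2 fold changes of -0.17 and 0.15 (limma adjusted p = 0.0798 and 0.143), with EPA below for Psmb2 and above for Psmb3. Thus 6 of the 7 tested beta genes had groups that did not overlap (85.7%, against 47.6% over all genes tested), 3 with EPA above and 3 with EPA below. Of the 7, 2 passed the test (28.6%, against 34.0% over all genes tested). The share without overlap was the highest of the rings and cap groups. It was 50% in the alpha rings, 50% in the non-ATPase genes of the cap and 20% in its ATPase genes, and these differences were not tested. Psmb11, the beta subunit of thymic epithelium, was below background on all 6 arrays.

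**Figure D2:**
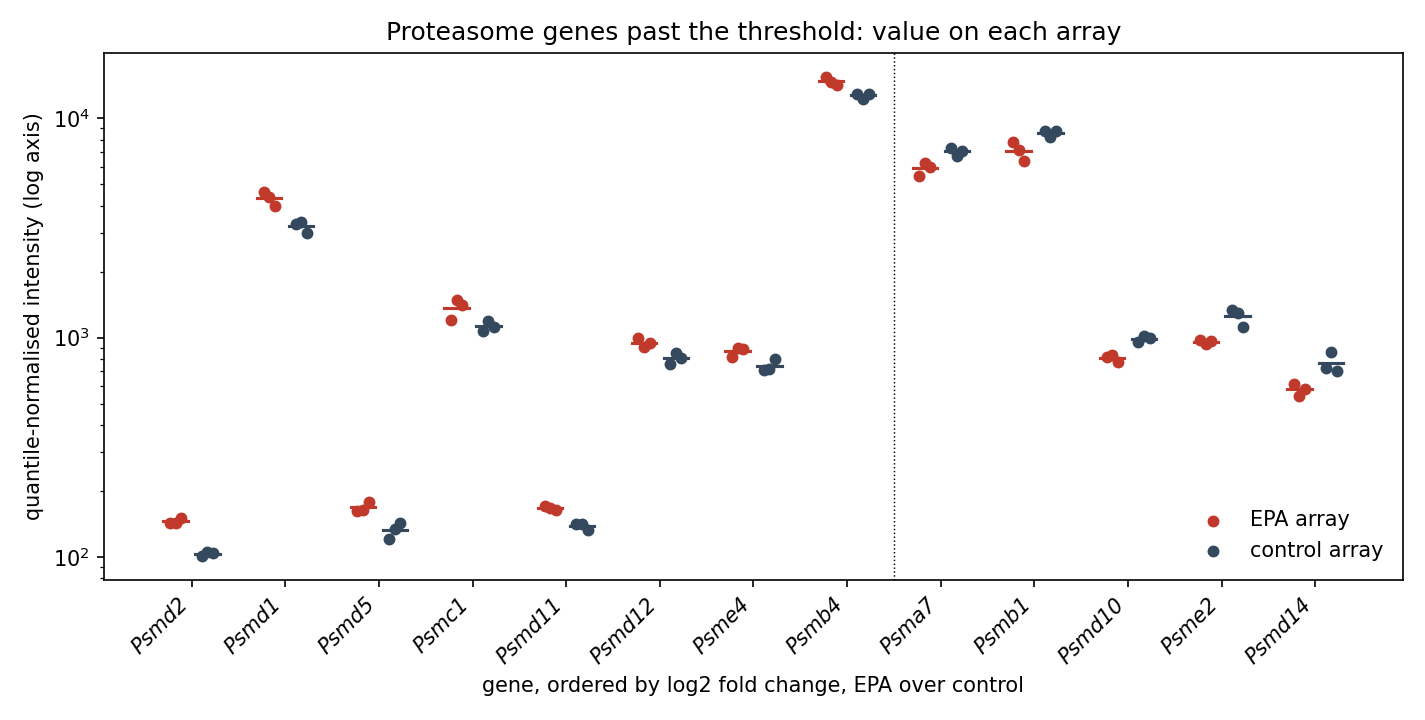
Intensity on each array (log axis) for the 13 proteasome genes past the threshold, EPA arrays left of control arrays for each gene, with a bar at each group mean; genes run from the largest rise to the largest fall and a dotted line parts the rises from the falls. In all 13 genes the 3 EPA arrays lie apart from the 3 control arrays, which choosing genes by a test on these same arrays favours. Levels are not comparable between genes, which have different probes.

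In the 19S cap, the 2 largest rises were in Psmd2 and Psmd1, which encode the large scaffold subunits of the base that dock ubiquitin shuttle factors and the substrate-processing enzymes. Psmd2 read 143, 142 and 150.3 on the EPA arrays, against 101, 105 and 104 on the control arrays. The EPA values were all above the control values by much more than the spread within either group (145 ± 4.35 with EPA and 103 ± 2.13 in control cells, SD, n = 3 each). The rise was 1.40-fold (log2 fold change 0.49, SE 0.0684, limma adjusted p = 0.000605). Psmd1 read 4629.6, 4399 and 3998 on the EPA arrays, against 3310.2, 3364 and 2989 on the control arrays, a rise of 1.35-fold (log2 fold change 0.43, SE 0.0841, limma adjusted p = 0.00374). These 2 calls held under every alternative tried, with log2 fold changes of 0.47 to 0.64 for Psmd2 and 0.38 to 0.49 for Psmd1.

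Genes of the lid, the part of the cap that holds the deubiquitinating enzyme, moved in opposite directions. Psmd14, which encodes that enzyme, had the largest fall of the proteasome genes. It read 615, 541 and 583 on the EPA arrays, against 725, 862 and 701 on the control arrays, a fall of 1.31-fold (log2 fold change -0.39, SE 0.0950, limma adjusted p = 0.011). Control replicate 2 was the highest of its group, and the call held without it. Psmd11 and Psmd12, scaffold subunits of the same lid, were higher. Psmd11 read 171, 166 and 163 on the EPA arrays, against 142, 141 and 133 on the control arrays, a rise of 1.20-fold (log2 fold change 0.26, SE 0.0694, limma adjusted p = 0.0158). Psmd12 read 996, 901 and 942 on the EPA arrays, against 759, 848 and 804 on the control arrays, a rise of 1.18-fold (log2 fold change 0.24, SE 0.0768, limma adjusted p = 0.0381). In all 3 genes the groups did not overlap. The Psmd11 call was lost without control replicate 3 (limma adjusted p 0.0364 to 0.0606 over the fits leaving out 1 array; log2 fold change 0.24 to 0.28). The Psmd12 call held only without control replicate 2 (limma adjusted p 0.0444 to 0.137; log2 fold change 0.20 to 0.28).

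The remaining non-ATPase genes did not pass. Psmd4, a ubiquitin receptor of the cap, read 5793, 7764 and 6492 on the EPA arrays, against 7150.1, 6042 and 6507 on the control arrays. The 3 EPA arrays spread widely, and its interval is the widest of the cap genes (log2 fold change 0.02, 95% interval -0.23 to 0.27). Psmd13, Psmd7, Psmd6 and Psmd8, all of the lid, had log2 fold changes of 0.03, 0.04, -0.07 and -0.17, each with overlapping groups. Psmd6 lay just above background, at 53.0, 44.4 and 46.4 on the EPA arrays, against 49.8, 54.0 and 46.9 on the control arrays. Psmd3, a further lid gene, was below background on all 6 arrays.

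Of the ATPase genes, whose products form the unfolding ring, 1 of 5 tested passed (20%, against 34.0% over all genes tested). Psmc1 read 1204, 1476 and 1406 on the EPA arrays, against 1066, 1188 and 1120.4 on the control arrays, a rise of 1.21-fold (log2 fold change 0.27, SE 0.0915, limma adjusted p = 0.044). The lowest EPA array was close to the highest control array, and the call held only without EPA replicate 1 (limma adjusted p 0.0117 to 0.146 over the fits leaving out 1 array; log2 fold change 0.21 to 0.36). Psmc2 read 4466, 4984 and 4755 on the EPA arrays, against 4426, 4544 and 5002 on the control arrays, with a log2 fold change of 0.02 (95% interval -0.15 to 0.20). Psmc3 read 2209, 2068 and 2100.5 on the EPA arrays, against 1828, 2041 and 2127 on the control arrays, with a log2 fold change of 0.09 (95% interval -0.09 to 0.27). Both had overlapping groups. Psmc4 and Psmc5 had log2 fold changes of -0.07 and -0.07, and Psmc6 was below background on all 6 arrays.

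**Figure D3:**
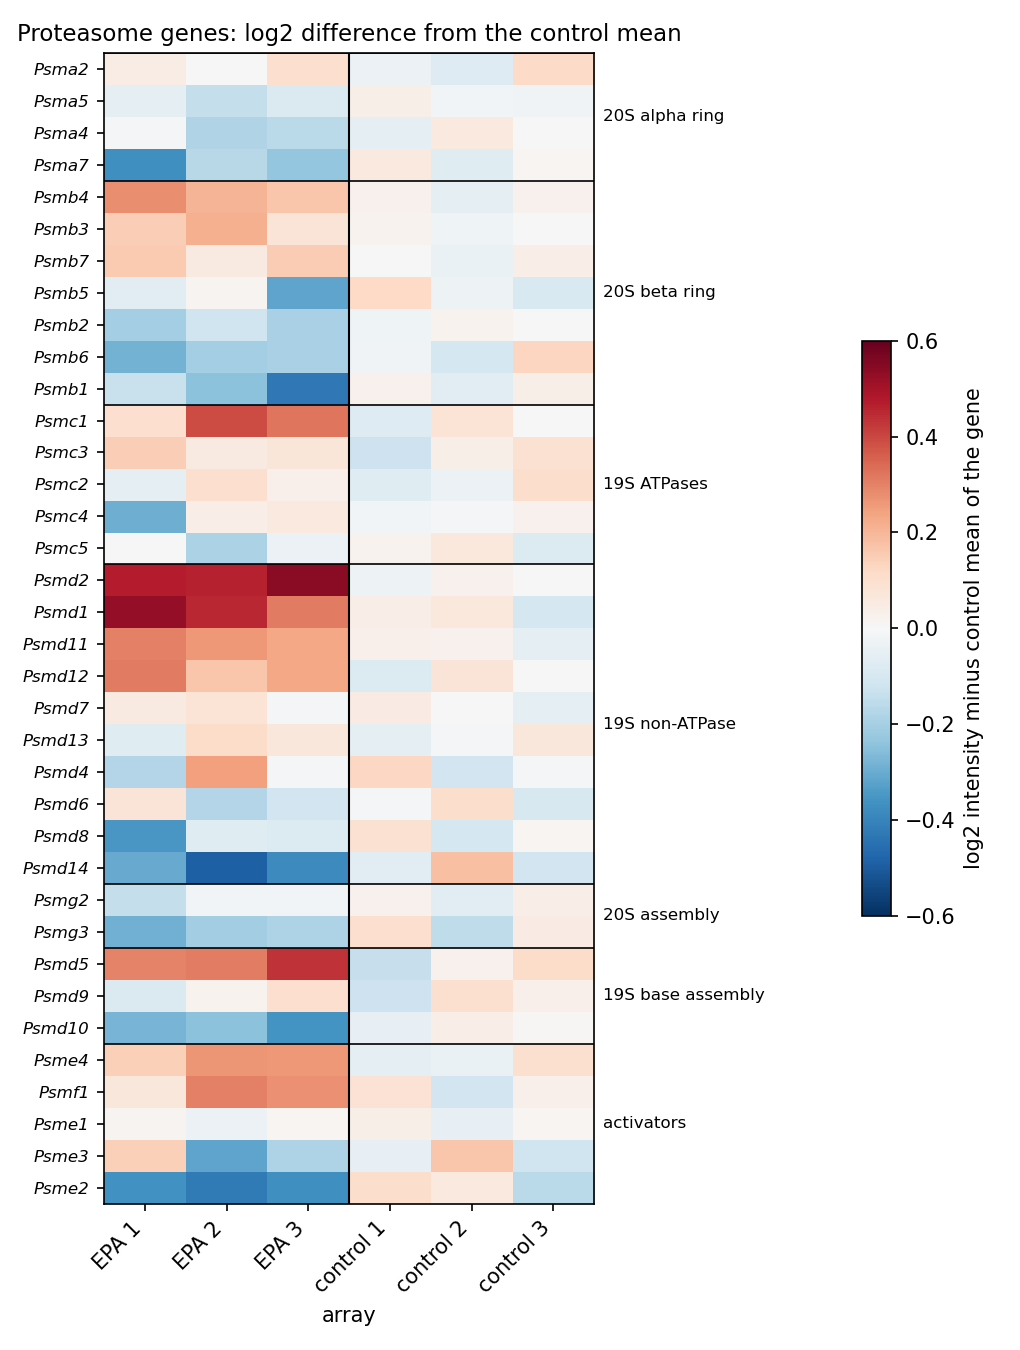
Log2 intensity of each of the 36 tested proteasome genes on each array minus that gene's control mean, red above and blue below, with EPA arrays left of control arrays and genes grouped by part of the particle. Rises in Psmd1 and Psmd2 and falls in Psmd14, Psmd10 and Psme2 appear on all 3 EPA arrays, while Psmc4, Psmd4 and Psme3 differ among the EPA arrays.

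The chaperones that build the base of the 19S cap also moved in opposite directions. Psmd5, a base assembly chaperone that can also restrain the joining of cap and core, read 162, 163 and 178 on the EPA arrays, against 120.0, 134 and 143 on the control arrays. All EPA arrays were higher, a rise of 1.27-fold (log2 fold change 0.34, SE 0.0854, limma adjusted p = 0.0122). The call was lost without EPA replicate 3 or control replicate 1 (limma adjusted p 0.0145 to 0.0519; log2 fold change 0.28 to 0.40). Psmd10 encodes gankyrin, a base assembly chaperone also known as an oncoprotein. It read 815, 833 and 773 on the EPA arrays, against 957, 1018 and 995 on the control arrays, a fall of 1.23-fold (log2 fold change -0.29, SE 0.0708, limma adjusted p = 0.0106) that held on leaving out any 1 array. The third base chaperone gene, Psmd9, had a log2 fold change of 0.01 with overlapping groups.

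For assembly of the 20S core, neither gene passed. Psmg3, part of a chaperone pair for the alpha ring, read 991, 1046 and 1067 on the EPA arrays, against 1301, 1091 and 1252 on the control arrays, with EPA entirely below control (log2 fold change -0.23, limma adjusted p = 0.0635). Psmg2, of the other pair, read 453, 494 and 494 on the EPA arrays, against 509, 478 and 514 on the control arrays, with overlapping groups and a log2 fold change of -0.06.

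Among the activators, 1 of the 2 genes of the interferon-inducible PA28 ring passed. Psme2 encodes its beta subunit. It read 971, 930.2 and 968 on the EPA arrays, against 1340.1, 1297 and 1115 on the control arrays, a fall of 1.30-fold (log2 fold change -0.38, SE 0.0849, limma adjusted p = 0.00719) that held on leaving out any 1 array. Psme1, which encodes the alpha subunit of the same ring, read 1835, 1769 and 1828 on the EPA arrays, against 1858, 1750.4 and 1828 on the control arrays. Its groups overlapped and its log2 fold change was -0.00 (95% interval -0.15 to 0.15), an interval that lies above that of Psme2 (95% interval -0.57 to -0.19). The difference between them was not tested.

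Psme4 encodes PA200, a nuclear activator linked to degradation of acetylated histones. It read 819, 892 and 888 on the EPA arrays, against 712, 722 and 794 on the control arrays, a rise of 1.17-fold (log2 fold change 0.22, SE 0.0774, limma adjusted p = 0.0497). It was the call nearest to the threshold, and was lost without EPA replicate 2, EPA replicate 3, control replicate 1 or control replicate 2 (limma adjusted p 0.0393 to 0.156; log2 fold change 0.19 to 0.27). Psme3, of the nuclear PA28 form, read 1272, 926 and 1014 on the EPA arrays, against 1114, 1294 and 1059.6 on the control arrays. Its EPA arrays spread across the range of the control arrays (log2 fold change -0.12, 95% interval -0.39 to 0.16). Psmf1, which encodes the proteasome-binding protein PI31, had a log2 fold change of 0.22 with overlapping groups (limma adjusted p = 0.0904).

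For the 23 genes that did not pass, a missed threshold does not show that EPA and control cells were alike. Their estimates ran from -0.23 to 0.22, and no 95% interval reached beyond -0.42 or 0.42 on the log2 scale. For 4 of them (Psmb2, Psmb6, Psmg3 and Psmf1) the interval left out 0 before adjustment.

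The 3 immunoproteasome subunit genes, which replace the proteolytic subunits under interferon, were all above background and did not pass, although Psmb8 passed under 5 of the 15 alternatives given below. Psmb8 read 1297, 1402 and 1382 on the EPA arrays, against 1109, 1199 and 1224 on the control arrays, with EPA entirely above control (log2 fold change 0.21, limma adjusted p = 0.0549), and Psmb9 and Psmb10 had log2 fold changes of -0.01 and 0.04.

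Genes that work with the proteasome were read as 3 further lists drawn from general knowledge. Of 9 tested partners with other names, among them the ubiquitin receptor Adrm1, the small lid subunit Sem1, the core maturation factor Pomp and the deubiquitinases Uchl5 and Usp14, 0 passed in limma, against 34.0% of all genes tested, and 0 had an unadjusted p under 0.05. None (0) had groups that did not overlap, against 47.6% of all genes tested. Their log2 fold changes ran from -0.10 to 0.20.

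Of 11 tested genes that regulate proteasome genes or process their regulator, 2 passed (18.2%, against 34.0% of all genes tested), both higher, and 3 had groups that did not overlap (27.3%, against 47.6%). Vcp, the ATPase that extracts ubiquitinated proteins from the endoplasmic reticulum and is needed to release NFE2L1 from it, read 6538, 6087 and 6127 on the EPA arrays, against 4457, 4691 and 4616 on the control arrays. Every EPA array was higher, a rise of 1.36-fold (log2 fold change 0.45, SE 0.0704, limma adjusted p = 0.00119). Bach1, a repressor at antioxidant response elements, read 160.2, 187 and 173 on the EPA arrays, against 142, 131 and 149 on the control arrays, a rise of 1.23-fold (log2 fold change 0.30, SE 0.0852, limma adjusted p = 0.0212). The Bach1 call was lost without EPA replicate 2, EPA replicate 3, control replicate 1 or control replicate 2 (limma adjusted p 0.0154 to 0.0787; log2 fold change 0.25 to 0.36). Nfe2l1 itself read 1461, 1360.3 and 1392 on the EPA arrays, against 1252, 1268 and 1139 on the control arrays. Its groups did not overlap, and it did not pass (log2 fold change 0.20, limma adjusted p = 0.0611). Its relative Nfe2l2 had a log2 fold change of -0.05, the protease gene Ddi2 -0.04, and the NF-Y subunit genes Nfya, Nfyb and Nfyc 0.05, -0.11 and 0.03.

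Of 12 tested genes for ubiquitin supply and shuttle factors, 2 were higher and 2 lower (33.3% called, against 34.0% of all genes tested). The groups did not overlap for 8 of the 12 (66.7%, against 47.6%), with EPA above in 5 and below in 3. Rps27a, which encodes ubiquitin fused to a ribosomal protein, read 1896, 2081 and 2087 on the EPA arrays, against 3592, 3391 and 3791 on the control arrays. The groups were far apart, a fall of 1.78-fold (log2 fold change -0.83, SE 0.0778, limma adjusted p = 7.7e-05). Near-identical copies of this gene could share its probes, so the source of this signal is uncertain. Ubb, which encodes a chain of ubiquitin units, did not pass, at a log2 fold change of 0.08. Ubqln4, a shuttle factor, read 397, 355 and 383 on the EPA arrays, against 506, 448 and 473 on the control arrays, a fall of 1.26-fold (log2 fold change -0.33, SE 0.0790, limma adjusted p = 0.0105). Sqstm1, the receptor p62 that takes ubiquitinated cargo to autophagy, read 3635, 3777 and 3744 on the EPA arrays, against 2694, 2446 and 2641 on the control arrays, a rise of 1.43-fold (log2 fold change 0.52, SE 0.0719, limma adjusted p = 0.000571). Ufd1, a cofactor of Vcp, read 316, 247 and 245 on the EPA arrays, against 195, 199 and 214 on the control arrays, a rise of 1.32-fold (log2 fold change 0.40, SE 0.105, limma adjusted p = 0.0158). The last call was lost without control replicate 1 (limma adjusted p 0.0206 to 0.0558; log2 fold change 0.28 to 0.46), and the calls of the other 3 genes held on leaving out any 1 array. Over all 35 companion genes tested, of 39 on the array, immunoproteasome subunits included, 6 (17.1%) passed, against 34.0% over all genes tested.

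**Figure D4:**
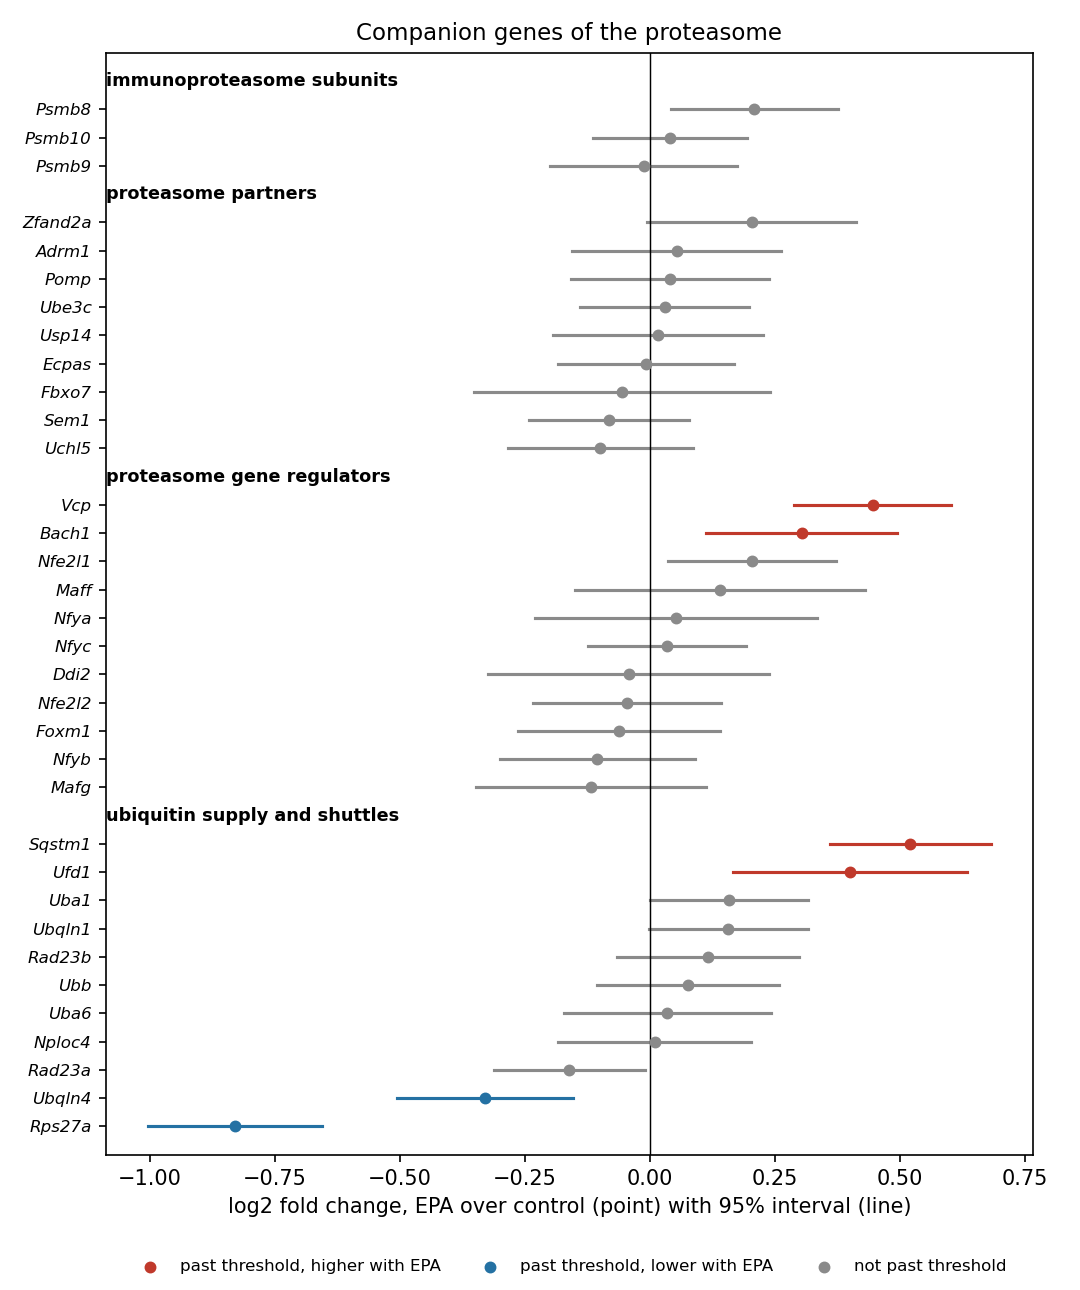
Log2 fold changes of tested companion genes, EPA over control, with 95% intervals as lines, grouped by list. Partner genes and immunoproteasome subunits have no call, and Vcp, Sqstm1, Ufd1 and Bach1 lie to the right and Ubqln4 and Rps27a to the left.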

How the data were processed

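RNA of 6 samples (3 EPA, 3 control) was read on Illumina mouse whole-genome arrays. The deposited series table holds linear intensities per target, and the steps behind it are not given in the sources used here. Its 6 columns share nearly the same sorted values (largest difference 0.465%), so they are taken as quantile-normalised by the authors. Other deposited exports of these arrays were made with GenomeStudio 1.7.0 with quantile normalisation, per the file headers, and were used only to count probes per target. A further deposited table of the authors gives a linear ratio, a log2 ratio and a p-value per target, with its test not given in the sources used here. In all, 102 deposited columns whose names match no sample label were not used.

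Target IDs were matched to current mouse symbols (16218 directly, 5703 through a synonym, 117 to several genes, 8790 to none), and the target with the highest mean was kept per symbol. The background limit of 39.4 is the mode of the intensities (28.1) plus the one-sided 0.05 level of the spread below it. Log2 intensities were tested two-sided with limma 3.58.1 in R 4.3.3, with Benjamini-Hochberg adjustment over 9273 genes and a threshold of 0.05. The procedure was run on simulated data with independent noise and far fewer changed genes than were called here. That run therefore says nothing on how firm the present calls are. Intervals are 95%, ± values are SDs, and precision is limited by having 3 arrays per group.

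The members and gene lists were chosen with earlier results of these data known, and no test was made over a list. By rule, array values are given for members past the threshold and for the 2 brightest of each class. Values of further members were added after they were seen. Alternatives changed the filter, background, normalisation, targets per gene, spread estimate, array weights and replicate block, or left out 1 array. One companion gene is counted in its list but not reported here.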

Additional observations from a re-analysis of the deposited data

How the results depend on the processing

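No called proteasome gene changed direction under any of the 15 alternatives. That was fixed in advance for the fits leaving out 1 array, because the groups did not overlap for any called gene. It was also fixed where only the filter, the targets kept, the spread estimate or the replicate block changed, which leaves the estimate as it was. Array weights and subtraction of the background level could not reverse groups that do not overlap. Only a change of normalisation could have reversed a direction. The calls of Psmd1 and Psmd2 held under all 15 alternatives. The other 11 called genes lost their call under at least 1, and Psmb2, Psmb6, Psmf1 and Psmg3 passed under at least 1. Of the companion genes that did not pass, Psmb8 passed under 5 alternatives, the partner gene Zfand2a under 2 and Nfe2l1 under 1. With no filter on dim targets, 19964 genes enter the adjustment, and 731 were higher and 582 lower over the whole array (6.58% called). There, 2 proteasome genes were higher and 0 lower, with 0 and 0 in the 20S core, 2 and 0 in the 19S cap, 0 and 0 among assembly factors, 0 and 0 among activators, and 2 and 1 among companion genes. With the background level subtracted, 28.4% of all genes tested were called. There, 4 proteasome genes were higher and 3 lower, with 0 and 0 in the core, 3 higher in the cap and 0 higher among activators. With an intensity trend and robust prior, 35.3% of all genes tested were called. Under that setting 8 proteasome genes were lower, 4 of them in the core and 2 among assembly factors. No activator was higher (0) with arrays scaled to one mean or with every target kept (34% and 33.9% of all genes called). With array weights (37.6% of all genes called), 2 activators were higher. The cause of these changes was not tested.

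The replicate numbers gave no sign of pairing the samples. Same-numbered deviations correlated at -0.04, -0.19 and 0.11, and 1 of 6 samples correlated best with its own number. With 3 arrays per group these values cannot exclude pairing. With the number as a replicate block, 5 proteasome genes were higher and 3 lower, with 0 and 0 in the core and 0 higher among activators. Over all genes tested, 31.5% were called with that block, beside 34.0% without it.

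Leaving out 1 array at a time gave 1277 to 1595 genes higher and 1080 to 1332 lower over the whole array. Proteasome genes higher ranged from 3 to 7 and lower from 3 to 6. In the core these counts were 0 to 0 and 0 to 2, in the cap 2 to 4 and 1 to 1, among assembly factors 0 to 1 and 1 to 2, among activators 0 to 2 and 1 to 1, and among companion genes 2 to 6 and 2 to 2. The median log2 fold change of all proteasome genes ranged from -0.029 to 0.042, of the core from -0.15 to -0.08, of the cap from -0.0043 to 0.067, of assembly factors from -0.09 to -0.02, and of activators from -0.03 to 0.02. Targets near background are compressed, and the 7 below it have no measure here.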

Other observations

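Psmg1, which encodes a chaperone of the 20S alpha ring, is on the array under the older name Dscr2 and so lies outside the naming rule. It was looked up after its values were seen. It read 685, 748 and 708 on the EPA arrays, against 841, 841 and 785 on the control arrays. The groups did not overlap, and it did not pass (log2 fold change -0.20, SE 0.0729, limma adjusted p = 0.0543).

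The authors' deposited table of changed targets has 4423 rows and holds 12 of the proteasome genes, 7 higher and 5 lower. Of these, 10 passed the test here, and the other 2, Psma5 and Psmb2, did not. All 12 had the same direction. That is no separate evidence, because the log2 ratios there are nearly the estimates here (for Psmd11, 0.265 in both). The p-values there are raw, while the calls here rest on adjusted p-values, so the 2 sets of genes were not chosen alike. Of the 13 genes called here, 3 have no row in the authors' deposited table: Psmd14, the largest fall, Psmb1 and Psmc1. In the authors' deposited table the ratio was 1.41 for Psmd2, 1.35 for Psmd1 and 0.76 for Psme2.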
